A study of Mus musculus with 24 samples.

Results

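Chemokine genes of the inflamed brain were followed through RNA of mice with an induced Polr3a mutation. They are Ccl2, Ccl3, Ccl4, Ccl5, Ccl12, Cxcl9, Cxcl10, Cxcl12, Cxcl16 and Cx3cl1, chosen by gene name in the count tables, and they make up 10 of the 54532 genes listed. Polyadenylated RNA of C57BL/6J mice was sequenced in 24 libraries, which form 6 groups of 4. Mutant and wild type mice alike received tamoxifen at postnatal day 28 (P28), and their tissue was taken 14 days later (P42, cerebrum or cerebellum) or 47 days later (P75, cerebrum). At P42, 2 males and 2 females made up each cerebrum group and the cerebellum mutants; the cerebellum wild types held 3 males and 1 female, and the P75 libraries came from males only. The mutants are labelled only as Polr3a mutants: the allele, the Cre driver, the cells that recombine, and whether the wild types carried Cre are not stated in the sources at hand. The Polr3a product is the biggest subunit of RNA polymerase III, which transcribes transfer RNA genes. Nothing in the labels says that each library is a separate animal, so p-values measure the spread between libraries, which may be technical in part.

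Chemokines are small secreted or membrane-tethered proteins that bind receptors on leukocytes, microglia and neurons and direct where those cells move. Most inflammatory chemokines are nearly silent in healthy brain and are induced through interferon signalling (Stat and Irf factors) and NF-kappaB. Cxcl12 and Cx3cl1 are different in kind: healthy brain makes both all the time, Cx3cl1 mainly in neurons, where it signals to the microglial receptor Cx3cr1. In whole tissue, fewer cells of a type and less RNA per cell cannot be told apart.

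Total counts per library ran from 13832721 to 23175864. Polr3a itself did not pass the test between genotypes, with log2 fold changes of -0.14 in cerebrum at P42, 0.10 in cerebellum and -0.10 in cerebrum at P75 (adjusted p 0.562, 0.984 and 0.542); whether the mutation should change its transcript level is not stated. The tissue labels held in the wild types at P42, where 5 of 5 cerebrum markers were higher and 5 of 5 cerebellum markers lower in cerebrum. Cerebrum mutants 3 and 4 at P42 stood apart, with the 5 cerebrum markers summing to 172 and 256 counts per 1000000 counts (CPM) against 960 and 1126 in mutants 1 and 2 and 869 to 1514 in wild types. Cerebellum mutant 1 also stood apart, with 15.4 CPM of 5 choroid plexus markers against 713 to 956 in the other mutants. Genotype results for the chemokines at P42 are therefore also given without mutants 3 and 4 in cerebrum and without mutant 1 in cerebellum.

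**Figure D1:**
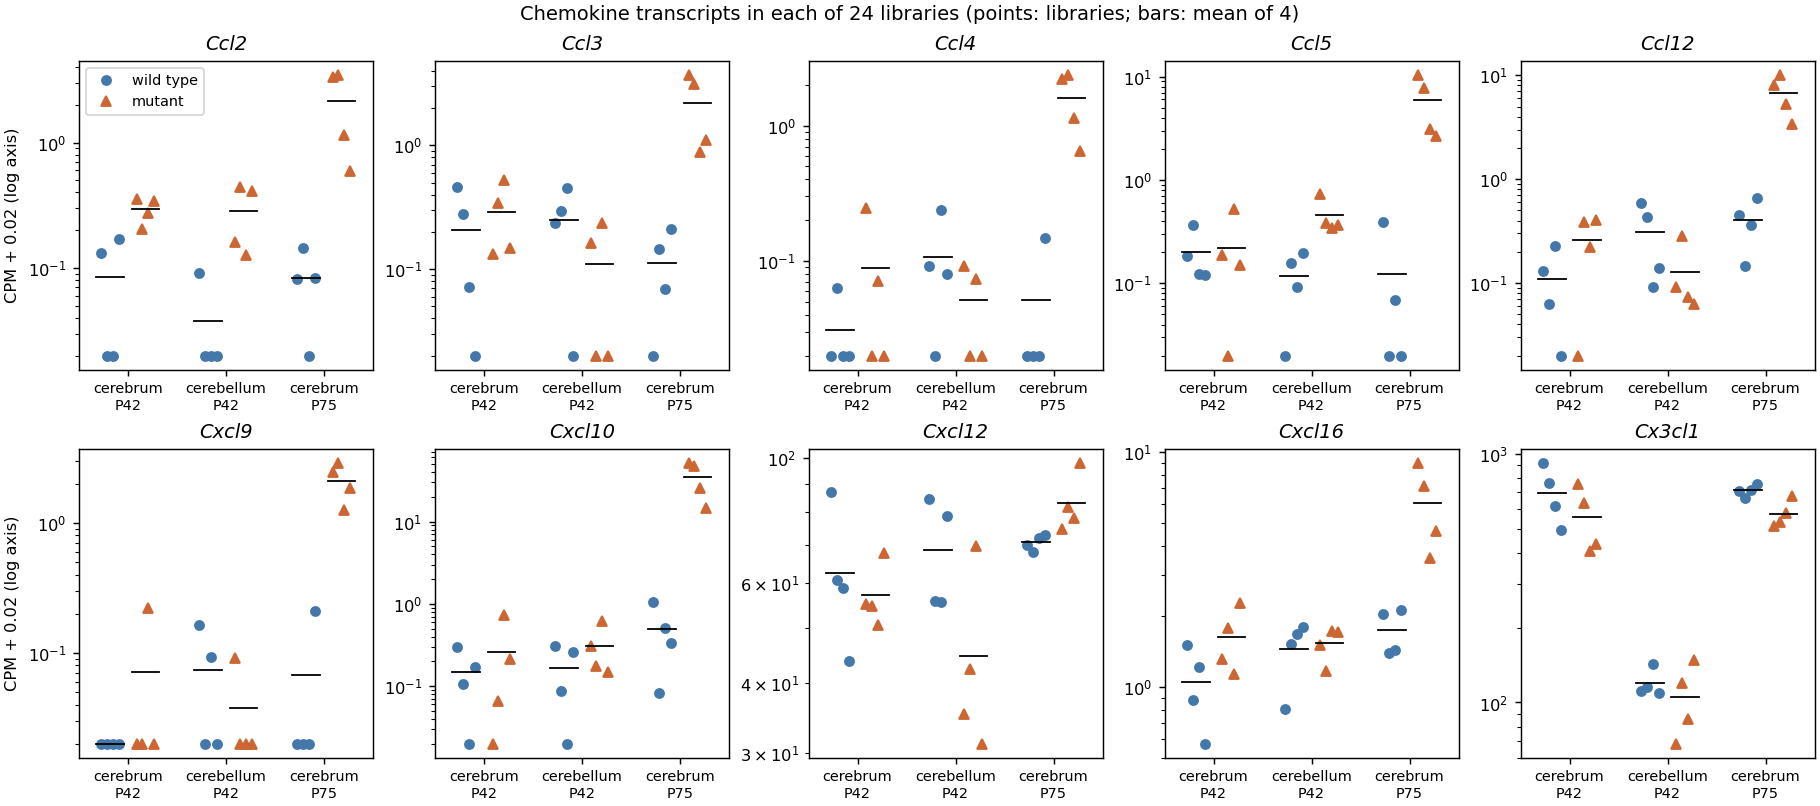
Level of each of the 10 chemokines in CPM, on a log axis with a small constant added, in the 2 cerebrum ages and the cerebellum. Circles are wild type libraries, triangles are mutant libraries and short lines are means of 4 libraries. In cerebrum at P75 the mutants lie above every wild type for all but Cx3cl1, while at P42 the groups overlap for most genes.

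In cerebrum at P75 most of these chemokines were far higher in mutants than in wild types. Of the 10 genes, 9 had enough counts to enter the fit across genes, and 7 of these rose and 1 fell at an adjusted p under 0.05, with a median log2 fold change of 4.42 against 0.003 over all genes tested. Over all 17523 genes tested, 14.3% were called (7.66% higher and 6.62% lower). Cxcl10, Ccl5, Ccl4, Cxcl9, Ccl3 and Ccl12 rose by log2 fold changes between 4.01 and 6.03, Cxcl16 by 1.70, and Cx3cl1 fell by 0.42. All of these except Cxcl16 and Cx3cl1 had too few wild type counts to pass the filter and entered through their mutant counts. For them entry to the fit and a rise are not independent. The number called and the median are therefore descriptions, and the values over all genes are not a like measure. Ccl2 missed the count filter, with 10 counts (0.574 CPM) in mutant 4, and is described from its counts. Cxcl12 did not pass the test. In 9 of the 10 genes, the 4 mutants lay above the 4 wild types in CPM, against 16.8% of all genes tested. That contrast is a description too, because most of the 9 entered the fit through their mutant counts. Ccl2, which is among the 9, is not among the genes tested. Folds below are from edgeR's quasi-likelihood test with their standard error (SE), or are ratios of pooled CPM with a 95% interval for counting error.

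The ligands of Cxcr3, a receptor of activated T cells and natural killer cells, are the interferon-induced Cxcl9 and Cxcl10. Cxcl10 had 51.1, 47.0, 25.3 and 14.5 CPM in mutants 1 to 4, against 1.04, 0.0626, 0.488 and 0.318 CPM in wild types 1 to 4. The lowest mutant thus lay far above the highest wild type. Its log2 fold change was 6.03 ± 0.49 (SE, n = 4 each, adjusted p = 3.39e-06), and 2514 pooled counts in mutants against 33 in wild types gave a ratio of 71.3 (50.7 to 104). Without wild type 1, the highest control, the log2 value was 6.67.
Cxcl9 gave 41, 55, 24 and 32 counts in mutants 1 to 4 and none in wild types 1 to 3, with 3 counts in wild type 4. The pooled ratio was 47.5 (15.9 to 233) and the log2 fold change 5.26 ± 0.69 (adjusted p = 0.000188). Without wild type 4, which held all the wild type counts, the fitted log2 value became 8.19, so the size of the rise rests on that library while the call did not change.

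The genes of Ccl3, Ccl4 and Ccl5, ligands that draw in T cells, monocytes and other myeloid cells, rose together. Ccl5 had 10.3, 7.80, 3.07 and 2.64 CPM in the mutants; the wild types gave 6, 0, 1 and 0 counts. Its log2 fold change was 5.65 ± 0.70 (adjusted p = 0.00011), and its pooled ratio 57.5 (27.7 to 144). Wild type 1 held 6 of the 7 wild type counts, and without it the fitted log2 value was 7.73.
Ccl3 gave 62, 60, 17 and 19 counts in mutants against 0, 2, 1 and 3 in wild types. On the log2 scale it rose by 4.42 ± 0.69 (adjusted p = 0.000834), with a pooled ratio of 24.7 (11.1 to 68.2). Ccl4 gave 37, 45, 22 and 11 counts in mutants, while in wild types only replicate 4 held any, with 2 counts. Its log2 fold change was 5.34 ± 0.80 (adjusted p = 0.000551; 7.78 without wild type 4) and its ratio 53.9 (14.6 to 450). For all 3 genes the lowest mutant exceeded the highest wild type.

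Ccl2 and Ccl12 encode ligands of Ccr2, the receptor that brings monocytes into inflamed tissue; Ccl12 is a mouse gene close to Ccl2. Ccl12 had 8.11, 10.03, 5.27 and 3.39 CPM in mutants and 0.430, 0.125, 0.342 and 0.636 CPM in wild types, with no overlap. Its log2 fold change was 4.01 ± 0.41 (adjusted p = 2.41e-05).
Ccl2 gave 56, 66, 22 and 10 counts in mutants against 1, 2, 0 and 1 in wild types. The pooled ratio was 36.1 (13.8 to 134; 55.3 without wild type 2), and the exact two-sided permutation test of the 4 against 4 libraries gave p = 0.0286, the smallest that 70 splits allow. In all, 22 such exact tests were run on low genes over the comparisons, and 4 reached this smallest p. In the authors' deposited table for P75 Ccl2 has a log2 fold change of 5.03 with an adjusted p of 1.19e-06; that table lists all 10 genes and has 9 of them past 0.05.

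Cxcl16, a membrane-bound chemokine and scavenger receptor that binds Cxcr6, was already present in wild type brain. It had 8.94, 7.12, 3.53 and 4.59 CPM in mutants and 2.03, 1.38, 1.42 and 2.10 CPM in wild types. The rise was smaller than that of the nearly silent genes but also without overlap, with a log2 fold change of 1.70 ± 0.29 (adjusted p = 0.00157).
Its gene model overlaps Zmynd15 on the other strand, with which it shares 16.9% of its 50-base words, and the sources at hand do not say whether counting used strand. Zmynd15 had 142 counts in mutants and 53 in wild types, so reads of these 2 genes may be mixed. Cxcl10 shares 3.59% of its words with Art3 on the other strand, which had 341 and 196 counts, far fewer than the 2514 mutant counts of Cxcl10. Ccl2 overlaps the annotated Gm17268, which had 0 counts in each of the 6 groups.

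Cx3cl1 and Cxcl12, the chemokines of healthy brain, behaved otherwise. Cx3cl1 had 511, 531, 579 and 675 CPM in mutants and 713, 666, 719 and 760 CPM in wild types, so that only mutant 4 reached into the wild type range. It fell by 0.42 ± 0.09 on the log2 scale (adjusted p = 0.00732).
Cxcl12, which holds cells near vessels and meninges through Cxcr4, had 74.9, 81.6, 78.3 and 97.7 CPM in mutants and 70.03, 68.1, 72.1 and 72.9 CPM in wild types. Although these ranges did not overlap, the log2 fold change after scaling was 0.13 ± 0.09 (adjusted p = 0.366). Scaling by library size alone moved the median of all genes to 0.11 and gave 0.23 for Cxcl12 (adjusted p = 0.0733) and -0.32 for Cx3cl1 (adjusted p = 0.0213). Neuron markers moved with Cx3cl1: 5 of 6 fell, and their sum was 3833 to 4579 CPM in mutants against 5017 to 5743 in wild types. Endothelial markers summed to 215 to 236 CPM in mutants against 157 to 169 CPM in wild types, and 3 of 5 rose. The part of cell makeup in either result was not tested.

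**Figure D2:**
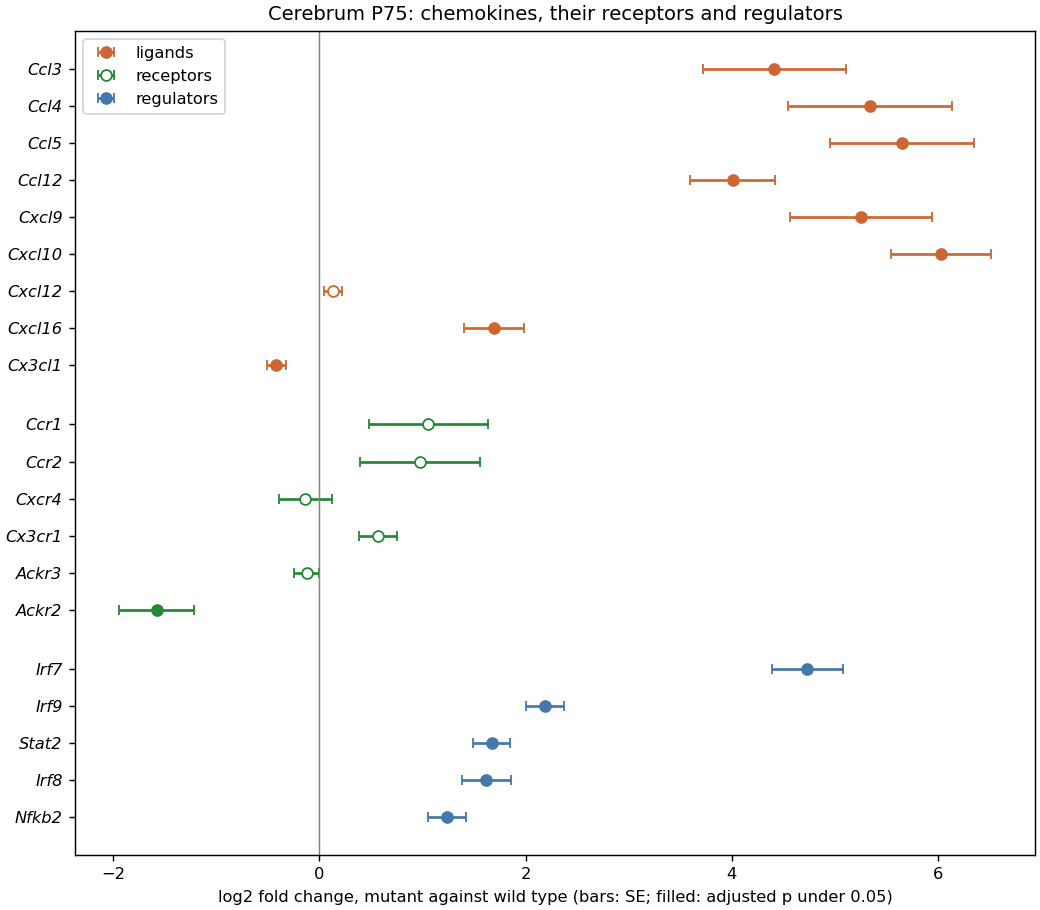
Log2 fold changes of mutants against wild types in cerebrum at P75 for the 9 chemokines in the fit, 6 receptors and 5 regulators, with SE as bars and filled points where the adjusted p is under 0.05. Cxcl10 lies furthest right at 6.03 and Irf7 leads the regulators at 4.74, while the receptors lie between -1.58 and 1.06.

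The 4 mutants at P75 did not carry the chemokines evenly. For 8 of the 10 genes, libraries 1 and 2 were the upper pair and 3 and 4 the lower pair. Between the highest and the lowest mutant the level differed 2.33-fold for Cxcl9, 3.53-fold for Cxcl10, 3.90-fold for Ccl5 and 5.97-fold for Ccl2. Cxcl12 and Cx3cl1 ran the other way, highest in library 4 and lowest in library 1, by 1.31-fold and 1.32-fold. Summed over the 8 genes other than these 2, the mutants held 90.1, 83.7, 41.5 and 29.2 CPM and the wild types 1.82 to 3.93 CPM, so even the lowest mutant stood clear of the wild types. The interferon regulators Irf7 and Irf9 were likewise highest in library 1 and lowest in library 4. Microglia markers summed to 560, 571, 343 and 319 CPM in mutants 1 to 4 and 246 to 271 CPM in wild types, and 5 of 7 rose, but not P2ry12 (0.02 ± 0.13, adjusted p = 0.934) or Sall1 (0.14 ± 0.12, adjusted p = 0.509). Astrocyte markers summed to 3164, 3227, 1744 and 1619 CPM in the mutants against 1188 to 1250 CPM, where Gfap was the 1 of 5 that rose (2.47 ± 0.28, adjusted p = 6.13e-05). These are values of 4 libraries given as a description, and the part of glial markers in the chemokine levels was not tested.

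**Figure D3:**
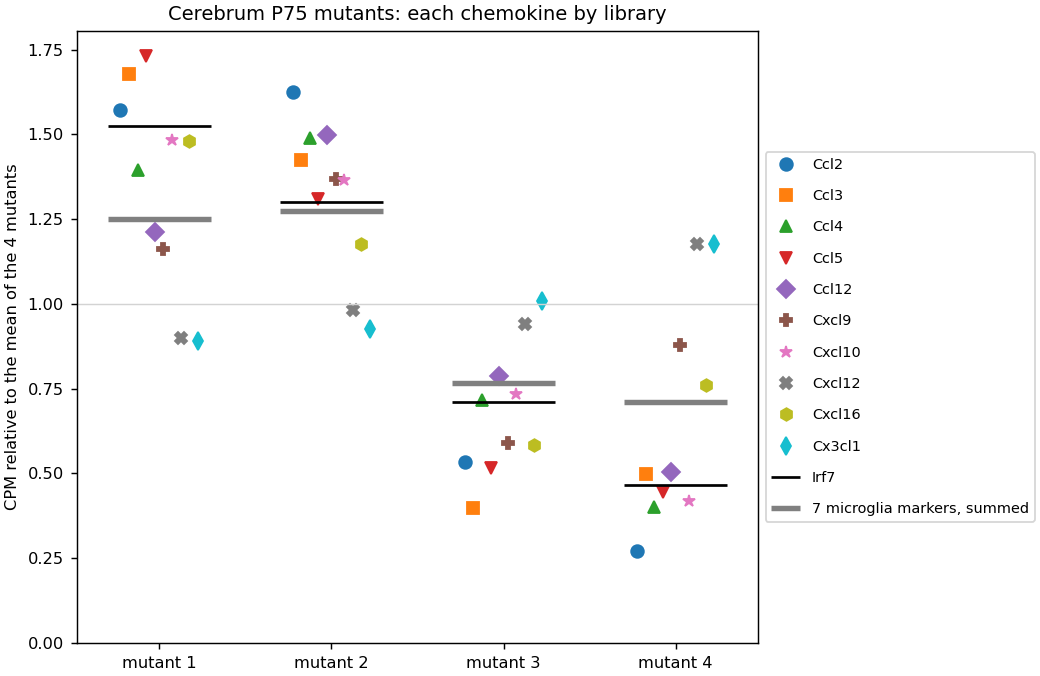
CPM of each chemokine in the 4 mutant cerebrum libraries at P75, relative to their mean. Black lines mark Irf7 and grey lines the sum of 7 microglia markers; 8 chemokines lie above 1 in mutants 1 and 2 and below 1 in mutants 3 and 4, and Cxcl12 and Cx3cl1 are highest in mutant 4.

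Per kilobase of gene model, the chemokines can be set against each other. In wild type cerebrum at P75 Cx3cl1 led with 182 ± 9.78 CPM per kb (SD, n = 4), followed by Cxcl12 with 8.66 ± 0.265, and neither range met that of its neighbour. Every other gene lay at 0.714 CPM per kb or less, and their ranges overlapped from one to the next. In mutants Cx3cl1 was still first with 146 ± 18.6, but Cxcl10 (15.3 ± 7.77) and Ccl12 (12.5 ± 5.49) reached that of Cxcl12 (10.2 ± 1.24), with overlapping ranges. Ccl5 followed with 6.202 ± 3.88 CPM per kb and Cxcl9 was last with 0.692 ± 0.235. In wild types 3 of 10 genes had a mean of at least 1 CPM, and in P75 mutants 10 of 10.

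**Figure D4:**
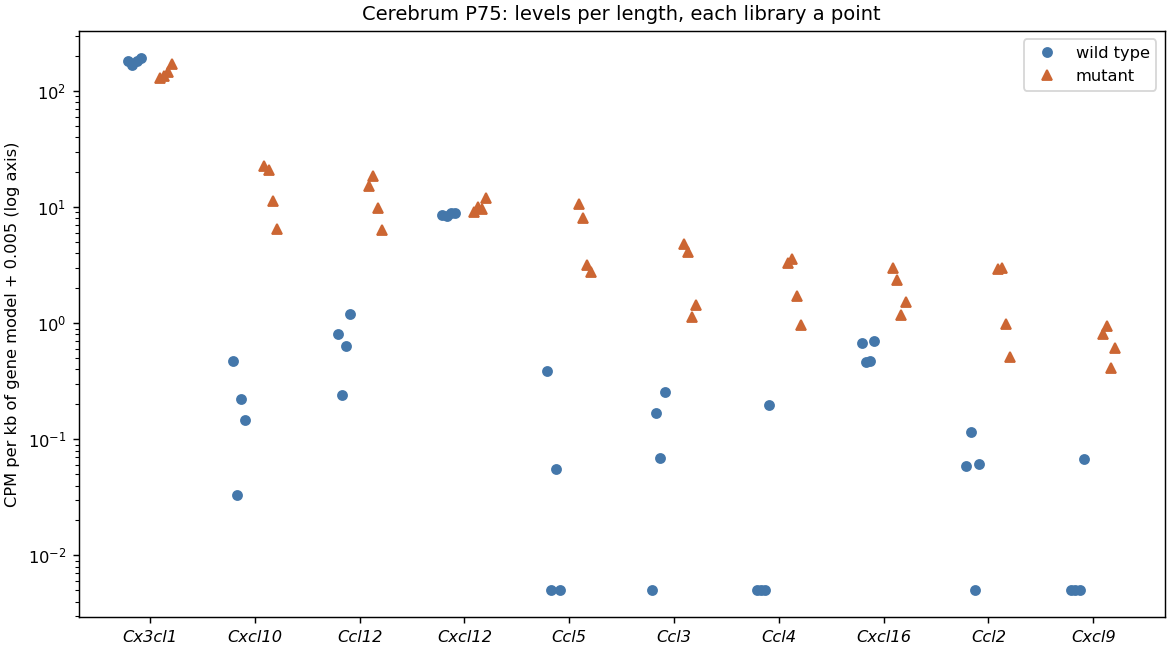
Levels of the 10 chemokines in cerebrum at P75 in CPM per kb of gene model, on a log axis with a small constant added, each point a library, ordered by the mutant mean. Cx3cl1 leads in both genotypes, and in mutants Cxcl10 and Ccl12 reach the level of Cxcl12.

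Of 25 other chemokine genes, 8 entered the fit at P75 and 2 rose, where 7.66% of all genes tested were called higher. The median log2 value of the 8 was 0.41, against 0.003 over all genes. Those that rose were Ccl9 (2.61 ± 0.40, adjusted p = 0.000751) and Ccl6 (2.37 ± 0.45, adjusted p = 0.00303), both mouse chemokines that bind Ccr1. Cxcl5 (0.94 ± 0.56), Pf4 (0.55 ± 0.39), Ccl25 (0.23 ± 0.13) and Ccl28 (0.25 ± 0.36) did not pass, with adjusted p from 0.282 to 0.708. Outside the fit, and named after their values were seen, Cxcl13 gave 174 counts in mutants against 2 in wild types (ratio 81.5, 22.2 to 678), of which mutant 2 alone held 109. Cxcl1 gave 15 counts against 2 (ratio 7.02, 1.63 to 63.3). Cxcl13 guides B cells through Cxcr5.

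Receptors showed smaller and mixed differences. Of 23 receptor genes 10 were tested. Ackr2, an atypical receptor that removes inflammatory chemokines, fell by 1.58 ± 0.37 on the log2 scale (adjusted p = 0.0108). The median log2 fold change of the 10 was 0.66. Among receptors of the 10 chemokines, Cx3cr1 (0.57 ± 0.19, adjusted p = 0.0565), Ccr1 (1.06 ± 0.58, 0.250) and Ccr2 (0.98 ± 0.58, 0.292) did not pass, nor did Cxcr4 (-0.14 ± 0.25, 0.774) and Ackr3 (-0.13 ± 0.12, 0.543). Ccr10 (0.83 ± 0.39) and Ccrl2 (0.75 ± 0.40) did not pass either, at adjusted p of 0.175 and 0.234. The lymphocyte receptors were too low for the fit: Cxcr3 gave 7 counts against 3, and Cxcr6 23 against 2. Ackr1, a decoy receptor of vessels and red cells, was at -0.04 (adjusted p = 0.873).

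Most single markers of lymphocytes had few counts. The 10 T and cytotoxic cell markers summed to 3.67 to 7.12 CPM in mutants and 6.26 to 8.30 CPM in wild types. Of these markers 2 were tested and 1, Cd4, fell (-1.04 ± 0.29, adjusted p = 0.0292). Cd4 made up most of the sum, with 240 counts in mutants against 429 in wild types. Cd3d, Cd3g, Cd8a and Gzmb had no count in the wild types; Cd8a had 31 in mutants (at least 9.68-fold higher, taking the wild types at a floor of 3 pooled counts) and Gzmb 25, of which 22 were in mutant 2. Cd3e gave 15 counts against 4, Cd8b1 11 against 1, Prf1 9 against 1 and Nkg7 17 against 7, while Trac gave 38 against 52. The 4 B cell markers summed to 3.79 to 9.83 CPM against 0.191 to 0.859, and this came mostly from Cd79a (4.20 ± 0.50, adjusted p = 9.04e-05), while Ms4a1 gave 1 count against 3. Of the 6 markers of monocytes and border macrophages, summing to 15.6 to 24.95 CPM in mutants and 8.59 to 13.8 in wild types, 4 were tested and Plac8 rose (3.55 ± 0.48, adjusted p = 0.000259). Neutrophil markers summed to 1.84 to 3.32 CPM against 1.29 to 2.93, and 0 of 2 tested was called. Choroid plexus markers summed to 580 to 796 CPM against 390 to 555, where 1 of 5 rose. The part of infiltrating cells in the chemokine levels was not tested.

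Most regulators upstream of the chemokines were higher too. Of 25 interferon, NF-kappaB, cytokine and protease genes, 20 were tested, 14 rose and none fell, against 7.66% of all genes called higher, with a median log2 fold change of 0.76. Irf7, a central factor of type I interferon responses, rose by 4.74 ± 0.34 (adjusted p = 1.63e-06). Irf9 (2.19), Stat2 (1.67), Irf8 (1.62) and Nfkb2 (1.24) rose too, with adjusted p of 0.000545 or less. Irf9 and Stat2 are parts of the factor that binds the interferon-stimulated response element (ISRE). The proteases Adam10 (-0.08 ± 0.08) and Adam17 (0.26 ± 0.11), which shed Cx3cl1 and Cxcl16, and Dpp4 (-0.01 ± 0.26), which trims several chemokines, did not pass (adjusted p 0.542, 0.145 and 0.987). The inducing cytokines were outside the fit: Tnf gave 27 counts against 2, Il1b 73 against 13, Il6 23 against 5, Ifng 3 against 1 and Ifnb1 2 against 0.

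Promoter windows were searched for the letters that such factors recognise. RefSeq promoter windows (250 bases before to 50 after the start, GRCm38.p6, gene strand, 5′ to 3′) matched 6 of the 10 genes. Both strands were searched for the ISRE core (GAAA, any 2 bases, GAAA) and the kappaB pattern (GGGA, any 4 bases, CC). Of the 4 matched genes that rose at P75, Cxcl10 and Cxcl9 held a match and Ccl3 and Ccl12 held none. Ccl12 and Cx3cl1, which fell and held none, are shown beside the first 2. Capitals mark the matches.
Cxcl10, chr5:92348840-92349139, minus strand: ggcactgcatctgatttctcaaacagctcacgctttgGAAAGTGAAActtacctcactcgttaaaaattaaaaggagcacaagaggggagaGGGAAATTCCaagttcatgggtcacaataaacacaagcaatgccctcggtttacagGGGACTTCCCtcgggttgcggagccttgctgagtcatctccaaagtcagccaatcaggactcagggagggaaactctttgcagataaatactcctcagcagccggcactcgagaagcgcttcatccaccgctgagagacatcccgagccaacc
Cxcl9, chr5:92328030-92328329, minus strand: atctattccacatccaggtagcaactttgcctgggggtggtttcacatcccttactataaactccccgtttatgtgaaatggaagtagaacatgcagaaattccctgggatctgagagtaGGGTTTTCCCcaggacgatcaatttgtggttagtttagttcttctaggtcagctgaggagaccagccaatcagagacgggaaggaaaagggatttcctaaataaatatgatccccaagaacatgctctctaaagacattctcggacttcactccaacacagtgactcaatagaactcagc
Ccl12, chr11:82101595-82101894, plus strand: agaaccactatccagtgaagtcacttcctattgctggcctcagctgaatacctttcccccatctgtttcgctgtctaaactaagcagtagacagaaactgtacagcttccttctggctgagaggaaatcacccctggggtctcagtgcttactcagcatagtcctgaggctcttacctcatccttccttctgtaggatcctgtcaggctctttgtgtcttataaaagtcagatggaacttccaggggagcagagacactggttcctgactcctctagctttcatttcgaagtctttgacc
Cx3cl1, chr8:94771930-94772229, plus strand: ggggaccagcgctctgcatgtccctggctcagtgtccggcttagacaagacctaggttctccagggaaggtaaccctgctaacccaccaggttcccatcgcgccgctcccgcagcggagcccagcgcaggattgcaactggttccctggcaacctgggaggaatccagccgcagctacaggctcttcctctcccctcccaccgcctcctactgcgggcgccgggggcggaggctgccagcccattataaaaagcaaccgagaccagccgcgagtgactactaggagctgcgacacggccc
In the Cxcl10 window GAAAGTGAAA began at base -213 from the start, and kappaB matches began at -159 (GGGAAATTCC) and -103 (GGGACTTCCC, which matches on both strands). In Cxcl9 the capitals at -130 are a kappaB match on the opposite strand. Of 32851 promoters of the same length, 3.44% held the ISRE core and 20.7% the kappaB pattern. The windows of Ccl3 and Cxcl12 held neither. A match describes letters only, and a window without one says nothing of the factor.

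Of the 10 genes 7 lie in 3 clusters. On chromosome 11 (mm10) Ccl2 (82035571 to 82037453) and Ccl12 (82101845 to 82103400) flank Ccl7 and Ccl11. Further along are Ccl5 (83525778 to 83530518), Ccl3 (83647844 to 83649355) and Ccl4 (83662584 to 83664683), with Ccl9 and Ccl6 between Ccl5 and Ccl3. On chromosome 5 Cxcl9 (92321347 to 92328079) and Cxcl10 (92346638 to 92348889) lie beside Cxcl11. Cxcl12 on chromosome 6, Cxcl16 apart on chromosome 11 and Cx3cl1 on chromosome 8 stand alone.
Of 14 other genes within 100 kb of the Ccl5 group, 8 were tested and 3 rose, where 7.66% of all genes tested were called higher. The 3 were Ccl9 and Ccl6, already counted among the other chemokines above, and Taf15, by 0.34. E230016K23Rik, annotated as a processed transcript inside that group and too low for the fit, gave 50 counts in mutants and 6 in wild types. Around Cxcl9 and Cxcl10, 6 of 10 neighbours were tested and 0 was called, among them Sdad1 (0.27) and Nup54 (0.27) on either side. Around Ccl2 and Ccl12, 1 of 7 neighbours was tested, Asic2 at -0.17, and not called. Other chemokines of these clusters were too low for the fit: Cxcl11, which the annotation lists as a polymorphic pseudogene, gave 32 counts in mutants and 0 in wild types (at least 9.99-fold higher), and Ccl7, a Ccr2 ligand, 32 against 3 (ratio 9.99, 3.13 to 51.0).

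**Figure D5:**
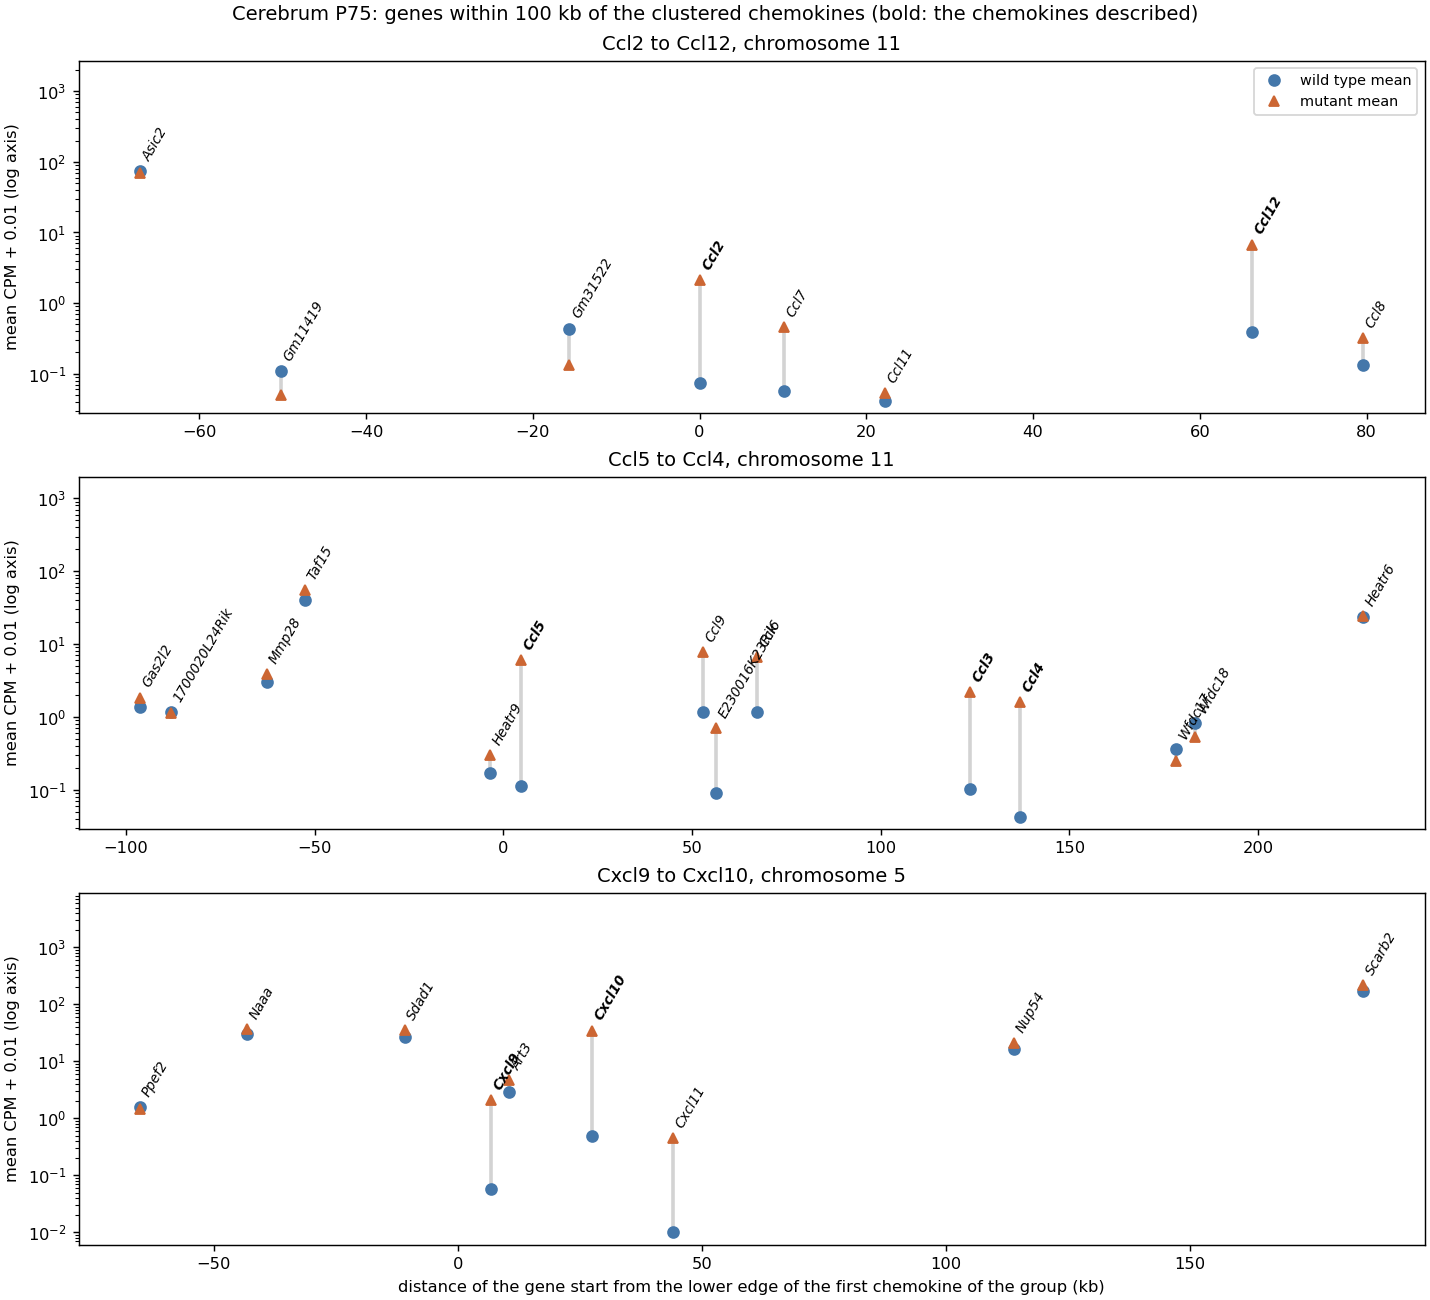
Mean CPM, on a log axis with a small constant added, in cerebrum at P75 of genes with at least 5 counts within 100 kb of the clustered chemokines, by distance in kb; circles are wild types and triangles mutants. The clustered chemokines (bold) lie under 1 CPM in wild types and above it in mutants, while the flanking genes Asic2 and Heatr6 lie at nearly the same level in both genotypes.

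At P42 no chemokine passed the test across genes in either tissue. Only Cxcl12, Cxcl16 and Cx3cl1 could be tested, and 0 of 3 was called in cerebrum (0.0165% of all genes called) and 0 of 3 in cerebellum (0.0114%). DESeq2 also called 0 of these 3 genes in either tissue. In cerebrum the log2 fold changes were -0.19 ± 0.19 for Cxcl12, 0.59 ± 0.42 for Cxcl16 and -0.37 ± 0.26 for Cx3cl1 (adjusted p 0.672, 0.535 and 0.530). Cx3cl1 had 760, 633, 407 and 435 CPM in mutants 1 to 4 and 918, 761, 620 and 495 CPM in wild types. The 2 lowest mutants are those with few cerebrum markers. Without them the log2 fold change was -0.03 for Cx3cl1, -0.19 for Cxcl12 and 0.63 for Cxcl16, and none passed. Thalamus markers summed to 529 to 914 CPM in mutants and 166 to 308 CPM in wild types of this comparison; their part was not tested.
In cerebellum Cxcl12 had 35.2, 42.2, 69.7 and 31.2 CPM in mutants and 84.6, 55.7, 55.5 and 78.9 CPM in wild types. The fold was -0.71 ± 0.25 on the log2 scale, which did not pass (adjusted p = 0.967), and was -0.63 without mutant 1. Choroid plexus markers summed to 15.4 to 956 CPM in these mutants and 1290 to 2325 in wild types, and their part was not tested. Cxcl16 (-0.02; -0.12 without mutant 1) and Cx3cl1 (-0.20 ± 0.25; 0.05 without mutant 1) did not pass either (adjusted p 0.9995 and 0.984).

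Among the low genes at P42, Ccl2 was the 1 whose mutants and wild types did not overlap in both tissues. In cerebrum it gave 6, 4, 5 and 5 counts in mutants against 2, 0, 0 and 3 in wild types, a ratio of 4.31 (1.57 to 14.7). It was 4.08 without mutants 3 and 4 and 8.11 without wild type 4, which held 3 of the 5 control counts. In cerebellum it gave 2, 8, 2 and 9 counts in mutants against 1 count in a single wild type, a ratio of 16.6 (2.67 to 687; 18.5 without mutant 1). In CPM every mutant lay above every wild type in both tissues, and the exact two-sided permutation test gave p = 0.0286 each time. Of the genes tested in the fit, 4.78% in cerebrum and 1.74% in cerebellum had all mutants above all wild types. Ccl2 was too low to be among those genes, so these shares are not a like measure.
Ccl5 in cerebellum gave 10, 7, 6 and 8 counts in mutants against 0, 2, 1 and 3 in wild types, also without overlap (ratio 4.09, 1.68 to 11.98, exact permutation p = 0.0286; 3.41 without mutant 1). In cerebrum Ccl5 was at 15 counts in both groups (ratio 1.08, 0.491 to 2.37; 0.408 without mutants 3 and 4). In cerebrum mutants the levels of both genes were below those of P75, in separate count tables. Ccl2 had 0.275 ± 0.0700 CPM at P42 (SD, n = 4) against 2.11 ± 1.47 at P75, and Ccl5 0.201 ± 0.216 against 5.95 ± 3.72. Cerebellum was not sampled at P75, so its Ccl5 level of 0.436 ± 0.184 CPM in P42 mutants has no such counterpart. Ccl3, Ccl4, Ccl12, Cxcl9 and Cxcl10 overlapped between genotypes in both tissues, with exact permutation p from 0.171 to 1. For Cxcl10 in cerebrum, mutant 3 held 14 of the 18 mutant counts, and the ratio of 1.94 (0.849 to 4.70) became 0.586 without it and 0.204 without mutants 3 and 4. In the same way Ccl3 went from 1.51 to 1.23, Ccl4 from 5.39 to 8.17 and Ccl12 from 2.77 to 2.33 in cerebrum. In cerebellum, Ccl3 went from 0.365 to 0.300 without mutant 1, Ccl4 from 0.316 to 0.195, Ccl12 from 0.372 to 0.401 and Cxcl10 from 1.85 to 1.84. Every one of these ratios rests on few counts. Cxcl9 had no count in cerebrum wild types and 4 counts in mutant 3 alone, and in cerebellum 1 count, in mutant 1, against 3.
Of the other chemokines 6 were tested in cerebrum and 4 in cerebellum at P42, of the receptors 10 and 9, and of the regulators 20 in each, and 0 was called. Irf7 was at 0.27 ± 0.32 and 0.26 ± 0.42 there (adjusted p 0.703 and 0.991). Cx3cr1 in cerebrum had 25.9 ± 1.62 CPM in mutants and 37.0 ± 5.26 in wild types (log2 fold change -0.58 ± 0.12, unadjusted p 0.000863, adjusted p = 0.238 in edgeR's test). Microglia markers summed there to 182 to 200 CPM in mutants and 211 to 249 CPM in wild types, and their part was not tested.

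The change between ages was tested directly as an interaction over the 16 cerebrum libraries, each age against its own wild types. Over all genes 1.36% were called, and of the 10 chemokines 1, Ccl5, whose log2 fold change was larger at P75 than at P42 by 5.72 ± 1.33 (adjusted p = 0.0414). The other chemokines called at P75 did not pass this test. Cxcl10 differed by 5.26 ± 1.54 (adjusted p = 0.115), Ccl3 by 3.94 ± 1.25 (0.150), Ccl12 by 2.73 ± 1.18 (0.302) and Cxcl16 by 1.11 ± 0.50 (0.331). Of Cxcl10, Ccl3, Ccl12 and Cxcl16, only Cxcl16 had enough counts to be tested at P42 alone. For Cxcl9 (2.24 ± 6.78) and Ccl4 (3.60 ± 2.81) the few P42 counts gave a wide standard error. Ccl2 (2.96 ± 1.45), Cxcl12 (0.32 ± 0.22) and Cx3cl1 (-0.04 ± 0.28) did not pass, at adjusted p of 0.368, 0.532 and 0.966.
The Ccl5 call was lost in males only (4.39, adjusted p = 0.341) and without P42 mutants 3 and 4 (6.86, adjusted p = 0.0525). It was also lost without any 1 of 10 of the 16 libraries, and with DESeq2 Ccl3 and Cxcl10 passed beside it (adjusted p 0.0379 and 0.00877). In the same test 6 of 21 regulators rose, with Irf7 larger at P75 by 4.48 ± 0.50 (adjusted p = 0.000203), as did Ccl9 (3.57 ± 0.54, adjusted p = 0.00233) and Cx3cr1 (1.15 ± 0.26, adjusted p = 0.0341).

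At P42 the fold in cerebrum minus that in cerebellum was 0.43 ± 0.34 for Cxcl12, 0.50 ± 0.51 for Cxcl16 and -0.24 ± 0.38 for Cx3cl1 on the log2 scale. None passed in edgeR's test (adjusted p 0.766 to 0.880), and over all genes 0.0% were called, with 1213 genes at an unadjusted p under 0.05 and 8 calls by DESeq2. In wild types, Cx3cl1 was the chemokine that set the tissues apart, with 698 ± 182 CPM in cerebrum and 119 ± 15.4 CPM in cerebellum (SD, n = 4 each). It was higher in cerebrum by 2.73 ± 0.19 on the log2 scale (adjusted p = 4.01e-06), where 30.5% of all genes were called. Cx3cr1, its receptor, was also higher in cerebrum (1.40 ± 0.13, adjusted p = 3.37e-05). Cxcl12 (0.01 ± 0.22) and Cxcl16 (-0.34 ± 0.41) did not pass. For the other 7 genes wild type counts were low in both tissues, with exact permutation p of 0.143 or more.

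Genes whose profile over the 6 groups was most like that of a chemokine were found by the root mean square difference of log2(CPM + 0.1) group means, each centred on its own mean, among genes tested at P75. These likenesses are descriptions over 6 points. The 4 chemokines with the highest mean level are given. Nearest to Cxcl10 were Cst7 (0.597), Mx1 (0.622) and Hist1h2bk (0.632), further from it than the nearest genes of the other 3 chemokines were from theirs. Cxcl16 lay nearest to Trim21 (0.112), Cyba (0.129) and Ifi35 (0.148), Cxcl12 to Alpl (0.051), Txlnb (0.064) and Csf2ra (0.089), and Cx3cl1 to Npy1r (0.037), Dclk3 (0.065) and Chrm3 (0.077).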

How the data were processed

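RNA was extracted with Trizol, and polyadenylated RNA was sequenced, per the labels' protocols. The submitters' processing notes name HISAT2, DESeq2 and the mm10 genome. The counter, the annotation release and the use of strand are not given in the sources used. The deposited values used are the authors' raw counts per gene, in a table for P42 and a table for P75, with 13832721 to 23175864 counts per library. The authors' deposited comparison tables hold log2 fold changes, p-values, a test score and a mean normalised signal per gene (per the file headers); their log2 values and adjusted p-values are printed only where named, and their score and signal not at all.

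Genes were filtered with filterByExpr, scaled with TMM and tested with edgeR 4.0.16 (R 4.3.3), with sex as a term at P42 and Benjamini-Hochberg adjustment over all genes at 0.05, first in simulated counts of known fold. Levels are CPM, counts per 1000000 of the library total. Low genes were compared by pooled ratios with 95% conditional binomial intervals, which cover counting error only, a floor of 3 counts over a group, and exact two-sided permutation tests (SciPy 1.17.1). Named genes are the chemokines, up to 6 genes of smallest p at P75 in each list, and the receptors of the chemokines whatever their p; other genes were named after their values were seen, and some genes of the lists are not reported here. The chemokines and all lists were chosen with earlier results of these data known. Alternatives included DESeq2 1.42.0, other scalings and filters, the replicate block, no sex term, males only and leaving out each library.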

Additional observations from a re-analysis of the deposited data

Results flagged for a closer look

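Of 60 sets of 4 libraries (10 genes in 6 groups), 9 held a library far from the other 3, and chance marks about 1 in 20. All are single libraries of low genes, in CPM: Ccl2 in cerebellum wild type 1 (0.0714), Ccl4 in cerebrum wild type 2 at P42 (0.0431) and cerebrum wild type 4 at P75 (0.127), Ccl5 in cerebellum mutant 1 (0.711) and cerebrum wild type 1 at P75 (0.368), and Ccl12 in cerebellum mutant 2 (0.262). Cxcl9 stood out in cerebellum mutant 1 (0.0711), cerebrum mutant 3 at P42 (0.203) and cerebrum wild type 4 at P75 (0.191). In the 6 groups where the other 3 libraries had no count, the distance is that of 1 to 4 counts from 0.

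The genotype effect on Ccl5 differed between P75 and P42 in the interaction test, by 5.72 on the log2 scale.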

How the results depend on the processing

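In cerebrum at P75 the number of chemokines called was 8 to 9 with any 1 library left out, and 6 with a filter of 1 CPM in 4 libraries, which tests fewer genes. Counts moved by over 1.5 times as follows. The age interaction called 3 chemokines with DESeq2 and 3 with no filter, 0 in males only, 0 without P42 mutants 3 and 4 together (both added after seeing the data), 0 at an adjusted p under 0.01, and 0 to 1 with 1 library left out. In cerebellum 1 chemokine (Cxcl12) was called with no filter. Receptors called in cerebrum at P42 were 1 with DESeq2 and 2 with no filter. Receptors at P75 were 0 at an adjusted p under 0.01 and 1 to 3 with 1 library left out, and other chemokines at P75 were 6 with no filter. Without the filter edgeR called 1312 of 34243 genes in cerebrum at P42, against 3 in the filtered fit. Causes were not tested.

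No reversed log2 value had passed the test. Cxcl16 became -0.20 in cerebrum at P42 in males only, and in cerebellum 0.13 with the replicate block and 0.083 with no sex term. Cx3cl1 in the age interaction became 0.0012 with library size scaling and 0.018 in males only. Cxcl12 between wild type tissues became -0.12 with library size scaling, -0.00038 with no filter, -0.11 with the replicate block and -0.014 with no sex term. With 1 library left out, Cxcl12 in cerebrum at P42 ran from -0.34 to 0.0034, Cxcl16 in cerebellum from -0.18 to 0.091, and Cx3cl1 in cerebellum from -0.38 to 0.052. Cx3cl1 in the age interaction ran from -0.22 to 0.17, Cxcl12 between tissues from -0.24 to 0.27, and Cxcl16 there from -0.57 to 0.14. The cause was not tested. Replicate numbers were not used as pairs in the main fit. Same-numbered deviations correlated by 0.026 to 0.141 at P75, where each library matched its own number best, a hint from the data and not from the design. With the replicate block 8 chemokines were called at P75 and 1 in the age interaction, and 0 at P42 in either tissue.

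In wild types at P75 the chemokines that rose, other than Cxcl16, gave 0 to 17 counts per library, and the intervals given cover counting error only. Leaving out 1 wild type library took the log2 fold of Cxcl9 to 8.19, of Ccl4 to 7.78 and of Ccl5 to 7.73, so the order of these genes by fold is not fixed.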
